A study of Mus musculus with 6 samples.

Results

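The lysyl oxidases and the enzymes that modify collagen were examined in the mouse cell line 3T3-L1, embryonic fibroblasts that serve as a model of preadipocytes. The set was given by name and holds 10 genes of the 24421 in the count table: Lox and its paralogs Loxl1, Loxl2, Loxl3 and Loxl4, the lysyl hydroxylase genes Plod1 and Plod2, the prolyl 4-hydroxylase alpha-subunit genes P4ha1 and P4ha2, and the procollagen C-proteinase enhancer gene Pcolce. All 10 symbols were found, and 9 had enough counts to be tested. RNA of undifferentiated, growing wild-type (WT) cells was compared with that of cells in which Ube3d was knocked out (KO), with 3 libraries per genotype called biological replicates in the sample titles. Both groups are 3T3-L1 cells kept under full confluence in the same medium and carry no other stated modification. The sources used here do not state whether the knockout cells are 1 clone or how far the replicate cultures were separate. The p-values therefore measure only the spread between these samples.

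Collagen is modified in steps that these genes serve in order. In the endoplasmic reticulum, prolyl 4-hydroxylases convert prolines so that the triple helix is stable, and lysyl hydroxylases convert lysines that later take part in cross-links. Outside the cell the C-terminal propeptide is cut off, with PCOLCE speeding the reaction, and lysyl oxidases, copper enzymes, oxidise lysines of collagen and elastin so that neighbouring chains become covalently cross-linked. In fibroblasts and preadipocytes these enzymes set how stable and how stiff the deposited matrix is.

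Total gene counts were 23767181 to 29389480 per library. Levels are CPM, counts scaled to library size, corrected by TMM factors between 0.982 and 1.01. Where the levels of different genes are compared, they are divided by the exon length in kilobases as well and called length-scaled levels. Means are ± SD with n = 3 libraries per genotype. A gene is called higher or lower at an edgeR quasi-likelihood adjusted p under 0.05, adjusted over all 12947 tested genes. Ube3d, listed under its older symbol Ube2cbp, had 145, 229 and 173 counts in the wild-type libraries and 56, 43 and 53 in the knockout libraries. All 8 fibroblast markers examined, Col1a1 and Col1a2 among them, were above 1 CPM, and their summed level was 14200 to 14600 CPM in the WT and 11400 to 11700 in the KO libraries. Of these, Pdgfra had mean levels of 284 and 194 CPM, Pdgfrb of 217 and 133 and Thy1 of 165 and 128, the wild-type mean first. The 8 markers did not all fall, since S100a4 had a higher mean in the knockout and Vim differed little. Of 6 macrophage markers 3 exceeded 1 CPM, with Adgre1 at 0 and a summed level of 16.1 to 16.8 CPM in the WT and 15.9 to 16.2 in the KO libraries. None of the 6 epithelial markers reached a mean of 1 CPM in either genotype. Of 5 endothelial markers Vwf did so in the knockout, at 1.27 CPM beside 0.285 in wild type, and the summed level was 0.600 to 1.08 CPM in the WT and 1.45 to 2.42 in the KO libraries. Of 5 mature adipocyte markers only Fabp4 had a mean above 1 CPM over the 6 libraries (summed level 3.43 to 3.92 CPM in wild type, 0.865 to 1.17 in the knockout). The precursor ribosomal RNA gene Rn45s took 7.28% to 8.91% of the counts in wild type and 9.68% to 10.2% in the knockout. Fitted without Rn45s, Lox had a log2 fold change of −1.89, Loxl3 of 0.431, Loxl4 of 0.480 and P4ha2 of −0.518. The part of the marker differences in the results was not tested. In bulk RNA, fewer cells that express a gene and less RNA per cell cannot be told apart.

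Of the 9 tested enzyme genes, the knockout had higher levels of 3 (Loxl3, Loxl4 and Pcolce) and lower levels of 3 (Lox, Plod1 and P4ha2), while Loxl1, Plod2 and P4ha1 were not called. That is 66.7% called, beside 61.4% of all tested genes, 30.3% higher and 31.2% lower, so the number of calls among the enzymes is near the background. The median log2 fold change was −0.02 over the 9 genes and 0.00413 over all tested genes. The knockout and wild-type libraries did not overlap for the same 6 genes, 3 in each direction. Over all tested genes 64.3% did not overlap, 31.8% with every knockout library above and 32.5% with every one below. The set therefore did not move as a block, and the differences lay between its members.

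**Figure D1:**
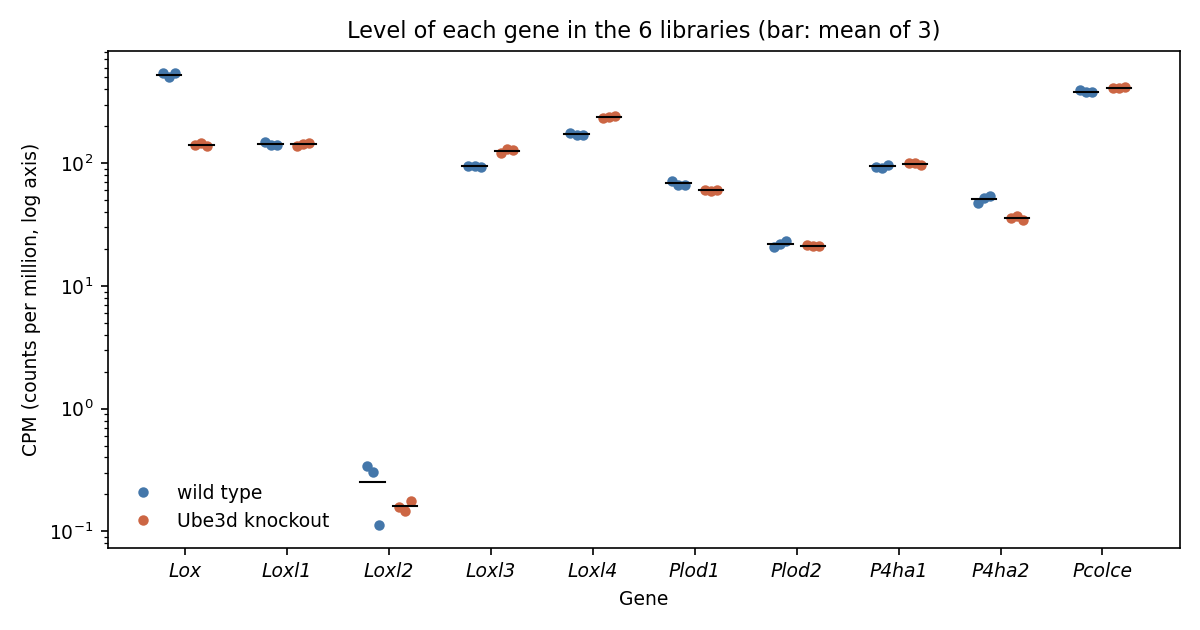
CPM of each of the 10 enzyme genes (x axis) on a log axis, 1 point per library, wild type in blue and Ube3d knockout in orange, with a bar at the mean of 3 libraries. Lox shows the widest gap, from about 527 to 142 CPM, Loxl3 and Loxl4 lie higher in the knockout, and Loxl2 lies under 1 CPM in all 6 libraries.

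Promoter sequence from the RefSeq table of GRCm38.p6 was used for 5 of the 10 genes, and Lox was not among them. Of these 5 genes, 3 are shown because they carry the contrast described below. P4ha1 and P4ha2 encode alternative subunits of the same enzyme and differed in their response, and Loxl4 was the lysyl oxidase gene with the largest rise. The sequences run 5′ to 3′ on the strand of the gene and end at, or just before, the first annotated exon. Capitals mark ACGTG or GCGTG on either strand (CACGT or CACGC when read on the other one), the core letters of hypoxia response elements, since P4ha1 and P4ha2 are known targets of hypoxia-inducible factors.
P4ha1 (chr10:59323046-59323295, plus strand): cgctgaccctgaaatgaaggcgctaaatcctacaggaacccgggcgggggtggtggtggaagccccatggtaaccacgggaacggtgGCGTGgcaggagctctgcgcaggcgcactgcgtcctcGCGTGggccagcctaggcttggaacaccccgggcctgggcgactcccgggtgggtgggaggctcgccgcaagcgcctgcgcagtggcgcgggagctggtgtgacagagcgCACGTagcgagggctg
P4ha2 (chr11:54100674-54100923, plus strand): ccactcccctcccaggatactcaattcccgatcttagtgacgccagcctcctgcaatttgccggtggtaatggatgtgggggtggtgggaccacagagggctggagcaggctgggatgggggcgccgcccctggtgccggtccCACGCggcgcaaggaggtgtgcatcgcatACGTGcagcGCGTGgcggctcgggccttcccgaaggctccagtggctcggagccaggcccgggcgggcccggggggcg
Loxl4 (chr19:42612814-42613056, minus strand): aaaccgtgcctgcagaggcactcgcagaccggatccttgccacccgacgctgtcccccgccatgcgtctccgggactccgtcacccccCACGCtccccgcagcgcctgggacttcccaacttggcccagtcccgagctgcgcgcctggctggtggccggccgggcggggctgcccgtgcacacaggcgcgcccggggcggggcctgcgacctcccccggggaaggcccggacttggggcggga
In windows from 250 bases before to 50 after the start site, P4ha1 held 3 such matches, P4ha2 held 4 and Loxl4 held 1. Plod1 and Pcolce, the other genes whose promoter sequence was used, held 2 and 1. At least 1 match was found in 43.8% of the 32851 promoters of the table, at least 3 in 8.93% and at least 4 in 3.86%. Matches that overlap each other were counted separately, and these shares are not matched for GC content. None of the 3 windows held CCAAT, which 37.4% of promoters held on either strand. A TATAAA match was absent upstream of the start in all 3. A GGGCGG match was present in each of them and in 35.7% of promoters. All 3 windows were GC-rich, at 70.3% for P4ha1, 70.3% for P4ha2 and 75.0% for Loxl4, beside a median of 52.7%. Whether these letters have a part in the different responses of P4ha1 and P4ha2 was not tested. A match of letters is a description and not a binding site.

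Lox, the founding lysyl oxidase, fell most of the set. Its 8 merged exons span chromosome 18, 52516060 to 52529867 (minus strand, GRCm38, the build of all gene positions here). The wild-type libraries held 538, 503 and 540 CPM, and the knockout libraries 142, 145 and 138 CPM. The groups lay far apart and each was tight. The means were 527 ± 21.0 and 141.7 ± 3.59 CPM, a 3.72-fold decrease (log2 −1.89, SE 0.03, edgeR adjusted p = 1.2e-56). Of all 12947 tested genes, 173 had a lower log2 fold change. The median over the 355 tested genes of chromosome 18 was −0.09, so Lox lay 1.80 below it (difference −1.80).

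Loxl1, the paralog best known for its role in elastic fibres, stayed at a similar level. The gene spans chromosome 9, 58287723 to 58313212 (minus strand, 7 merged exons). Its levels were 150, 141 and 141 CPM in wild type and 138, 144 and 145 CPM in the knockout, and the groups overlapped. The log2 fold change was −0.02 (SE 0.03, edgeR adjusted p = 0.65), and the interval of 2 SE on each side ran from −0.083 to 0.047. A change of the size seen for Loxl3 or Loxl4 lies outside that interval.

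Loxl3, which acts on collagen and fibronectin in developing tissues, was higher in every knockout library. Its position is chromosome 6, 83034224 to 83052564 (plus strand, 14 merged exons). The wild-type libraries held 94.7, 95.0 and 93.9 CPM and the knockout libraries 122, 131 and 128 CPM. This was a 1.34-fold increase (log2 0.42, SE 0.03, edgeR adjusted p = 1.7e-17). The 3′ exons of Loxl3 overlap those of Htra2 on the other strand, and no source used here states the strand setting of the counting. Htra2 went the opposite way (log2 −0.20, SE 0.04, edgeR adjusted p = 3.0e-05), from 69.9 ± 2.13 to 60.7 ± 3.31 CPM. Genes of chromosome 6 had a median log2 fold change of −0.10.

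Loxl4, one of the paralogs that carry scavenger-receptor domains, rose slightly more. The gene spans chromosome 19, 42592279 to 42612806 (minus strand, 15 merged exons). The levels were 176, 170 and 168 CPM in wild type and 235, 239 and 240 CPM in the knockout, with no overlap. The increase was 1.39-fold (log2 0.47, SE 0.03, edgeR adjusted p = 9.1e-23). Chromosome 19 had a median log2 fold change of 0.11, so Loxl4 lay 0.37 above it.

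Loxl2, the paralog linked to basement-membrane collagen and to hypoxia, was close to the limit of detection. It lies on chromosome 14 at 69609476 to 69695834 (plus strand, 14 merged exons), and 1 of its exons is shared with the microRNA gene Mir6950. The wild-type libraries held 8, 9 and 3 counts and the knockout libraries 4, 4 and 5. With 20 counts against 13 in sum, the ratio of knockout to wild type was 0.642, with an exact 95% interval from 0.293 to 1.36 that covers counting error only. No difference could be detected at this depth, and the gene was not tested.

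The composition of the lysyl oxidase transcripts differed between the genotypes. In wild type, Lox made up 52.0%, 51.2% and 53.2% of the length-scaled level of the 5 genes, and in the knockout 20.1%, 19.8% and 19.0%. Lox was thus the most abundant of the family in every wild-type library and per length the lowest of the 4 well-detected genes in every knockout library. In CPM, without the length, Loxl3 was the lowest of these in the knockout, at 126.8 ± 4.37 beside 141.7 ± 3.59 for Lox. The share of Loxl4 went from 15.4% ± 0.33 to 29.9% ± 0.27, that of Loxl1 from 21.1% ± 0.48 to 29.1% ± 0.40 and that of Loxl3 from 11.4% ± 0.34 to 21.4% ± 0.34. Loxl2 made up 0.024% and 0.021%. The rise in the share of Loxl1 came with no called change in its own level. The knockout and wild-type shares of Lox, Loxl1, Loxl3 and Loxl4 did not overlap. Each two-sided exact permutation test gave p = 0.10 (0.12 adjusted over 12 shares), the smallest value that 3 libraries against 3 can give. The shares sum to the whole, so a fall of Lox alone raises the others and these tests are not independent.

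The summed length-scaled level of the family fell from 205 ± 5.51 to 146.5 ± 2.75, a ratio of 0.715. Without Lox, the other 4 genes summed to 98.1 ± 2.36 in wild type and 117.8 ± 2.70 in the knockout, a ratio of 1.20. The rise of the paralogs was therefore smaller in amount than the fall of Lox. The length-scaled ratio of Lox to Loxl4 was 3.37, 3.26 and 3.53 in the wild-type libraries and 0.667, 0.668 and 0.633 in the knockout libraries. This ratio and the 4 others given below were chosen after the values were seen.

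**Figure D2:**
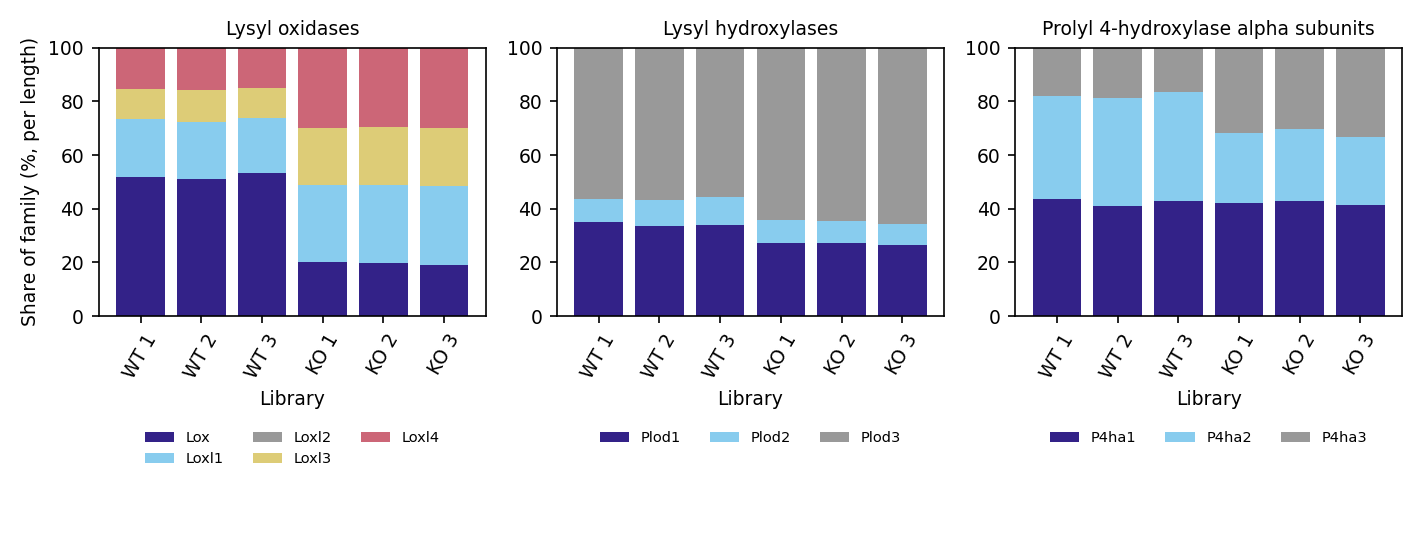
Share of each gene in the length-scaled level of its enzyme family (y axis, percent) in each of the 6 libraries (x axis), as stacked bars for lysyl oxidases, lysyl hydroxylases and prolyl 4-hydroxylase alpha subunits. Lox shrinks from 51.2% or more to 20.1% or less. In the knockout the share of P4ha2 is smaller and that of P4ha3 larger, while that of P4ha1 stays between 41.1% and 43.7%.

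The lysyl hydroxylases differed less. Plod1, which hydroxylates lysines of the helix, lies on chromosome 4 at 147909753 to 147936776 (minus strand, 19 merged exons). Its levels were 72.0, 66.8 and 66.8 CPM in wild type and 60.1, 59.6 and 60.6 CPM in the knockout. Every knockout library was lower, although the difference was small at 1.14-fold (log2 −0.19, SE 0.04, edgeR adjusted p = 8.5e-05).

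Plod2, which hydroxylates lysines of the collagen telopeptides, lies on chromosome 9 at 92542223 to 92608427 (plus strand, 20 merged exons). Its levels were 20.7, 21.9 and 23.4 CPM in wild type and 21.5, 21.0 and 21.1 CPM in the knockout, and the groups overlapped. The log2 fold change was −0.06 (SE 0.06, edgeR adjusted p = 0.46), with an interval of 2 SE on each side from −0.19 to 0.073. One exon overlaps B430319G15Rik on the other strand, which was at 2.03 ± 0.36 CPM in wild type and 1.88 ± 0.31 in the knockout.

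The third member of the family, Plod3, which also transfers sugars to hydroxylysine, was higher. It went from 113 ± 3.40 to 145.5 ± 5.40 CPM (1.29-fold, log2 0.36, SE 0.03, edgeR adjusted p = 3.5e-15). Its exons overlap those of Znhit1 on the other strand (log2 0.18, SE 0.05, edgeR adjusted p = 0.0028). It lies on chromosome 5, whose 804 tested genes had a median of 0.19, with 467 higher and 86 lower. Plod3 made up 56.1% ± 0.56 of the length-scaled lysyl hydroxylase level in wild type and 64.7% ± 0.77 in the knockout, and Plod1 34.2% ± 0.68 and 27.0% ± 0.52. The share of Plod2 was 9.64% ± 0.80 and 8.33% ± 0.26. The summed level was 61.6 ± 1.57 in wild type and 68.6 ± 1.74 in the knockout. The shares of these 3 genes did not overlap between genotypes (exact permutation p = 0.10 each, 0.12 adjusted). Shares of a family sum to the whole, so these are not separate results. The lower share of Plod2 came with no called change in its own level.

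Prolyl 4-hydroxylase joins catalytic alpha subunits with beta subunits that are encoded by P4hb. P4ha1, the main alpha-subunit gene in most cells, lies on chromosome 10 at 59323296 to 59373304 (plus strand, 15 merged exons). Its levels were 93.7, 91.9 and 97.1 CPM in wild type and 99.8, 101 and 96.8 CPM in the knockout. Knockout replicate 3 lay just under wild-type replicate 3, so the groups overlapped. The difference missed the threshold (log2 0.07, SE 0.04, edgeR adjusted p = 0.069). It passed under 4 of the 14 alternatives, and over all of them the adjusted p ran from 0.0187 to 0.255, so the call depended on the settings.

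P4ha2, the alternative alpha subunit, was lower in every knockout library. It lies on chromosome 11 at 54100924 to 54131667 (plus strand, 17 merged exons). The wild-type libraries held 47.7, 52.3 and 53.8 CPM and the knockout libraries 35.5, 37.0 and 34.5 CPM. This was a 1.44-fold decrease (log2 −0.52, SE 0.05, edgeR adjusted p = 8.1e-15), and 986 of the tested genes had a lower log2 fold change. The length-scaled ratio of P4ha1 to P4ha2 was 1.14, 1.02 and 1.05 in the wild-type libraries and 1.63, 1.58 and 1.63 in the knockout libraries. P4ha1 was thus the higher per length in every library of both genotypes, by a small margin in wild type and a wider one in the knockout.

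P4ha3, the least abundant alpha-subunit gene in wild type, went the other way. Its levels were 22.4, 24.3 and 21.7 CPM in wild type and 43.9, 41.6 and 45.2 CPM in the knockout, a 1.91-fold increase (log2 0.93, SE 0.06, edgeR adjusted p = 4.4e-24). The partner gene P4hb stayed at 870 ± 20.7 and 884 ± 7.37 CPM (log2 0.02, SE 0.03, edgeR adjusted p = 0.51). P4ha2 took 39.9% ± 1.27 of the alpha-subunit level in wild type and 26.2% ± 0.80 in the knockout, and P4ha3 17.6% ± 1.12 and 31.7% ± 1.46 (exact permutation p = 0.10 each, 0.12 adjusted). P4ha1 made up 42.5% ± 1.33 and 42.2% ± 0.68 (exact permutation p = 0.80, 0.873 adjusted). The order of P4ha2 and P4ha3 was thereby exchanged, and the summed level was 54.8 ± 1.64 in wild type and 58.2 ± 0.37 in the knockout.

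Pcolce was the most abundant of the 10 genes per length in both genotypes. It lies on chromosome 5 at 137605107 to 137611404 (minus strand, 9 merged exons). Its levels were 392, 381.5 and 378 CPM in wild type and 407, 408 and 420.3 CPM in the knockout, which did not overlap but lay close. The increase was 1.07-fold (log2 0.10, SE 0.03, edgeR adjusted p = 0.0020). It was below the median of its chromosome by 0.09 (difference −0.09), since genes of chromosome 5 were higher in general.

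The related enhancer gene Pcolce2 changed far more at a far lower level. It held 4.54, 4.55 and 4.45 CPM in wild type and 16.6, 16.7 and 14.6 CPM in the knockout, a 3.53-fold increase (log2 1.82, SE 0.10, edgeR adjusted p = 1.4e-26). Its share of the length-scaled enhancer level was 0.960% ± 0.014 in wild type and 3.10% ± 0.28 in the knockout, so Pcolce still made up nearly all of it. Bmp1, which encodes the procollagen C-proteinase that both enhancers serve, was lower. It held 75.7, 83.6 and 74.5 CPM in wild type and 45.1, 50.2 and 51.8 CPM in the knockout (1.59-fold lower, log2 −0.67, SE 0.05, edgeR adjusted p = 4.9e-19). The length-scaled ratio of Pcolce to Bmp1 was 14.3 ± 0.96 in wild type and 24.4 ± 1.52 in the knockout.

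**Figure D3:**
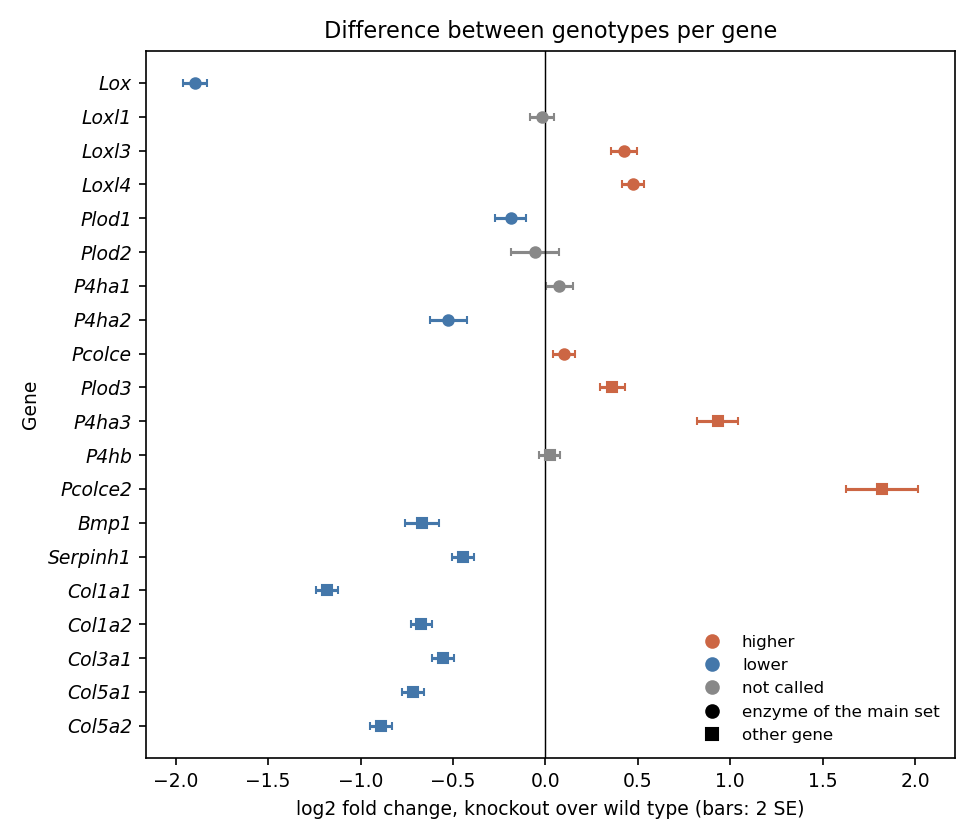
log2 fold change of knockout over wild type (x axis) with bars of 2 SE for the 9 tested enzyme genes (circles) and for related and substrate genes (squares), coloured by the edgeR call. Lox lies at −1.89, Loxl3 and Loxl4 at 0.42 and 0.47, P4ha2 at −0.52 opposite P4ha3 at 0.93, and the 5 collagen genes drawn lie between −1.18 and −0.55.

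Ordered by length-scaled level, the wild-type cells held Pcolce at 249.5 ± 4.91, Lox at 106.8 ± 4.25, Loxl1 at 43.2 ± 1.56 and Loxl4 at 31.6 ± 0.74. Loxl3, P4ha1, P4ha2 and Plod1 followed between 23.4 and 21.1, and the libraries of each neighbouring pair among these 4 overlapped. Plod2 came next at 5.93 ± 0.35 and Loxl2 last at 0.049 ± 0.024. In the knockout Lox had moved from rank 2 to rank 5, at 28.7 ± 0.73. Pcolce (267.7 ± 4.70) was followed by Loxl4 (43.8 ± 0.57) and Loxl1 (42.6 ± 1.15), whose libraries overlapped, and by Loxl3 (31.3 ± 1.08). Below Lox came P4ha1 at 24.5 ± 0.54, Plod1 at 18.5 ± 0.15, P4ha2 at 15.2 ± 0.53, Plod2 at 5.71 ± 0.067 and Loxl2 at 0.031 ± 0.0031, none of which overlapped its neighbour.

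**Figure D4:**
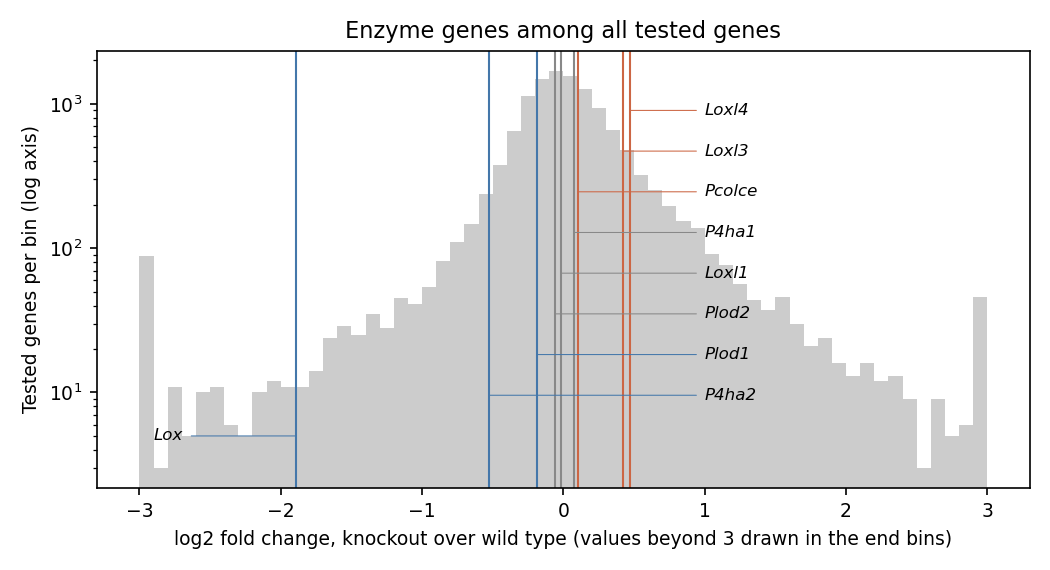
Number of tested genes (y axis, log scale) by log2 fold change of knockout over wild type (x axis, bins of 0.1), with a line at each of the 9 tested enzyme genes coloured by its call. Lox lies far out in the lower tail, with 173 genes below it, and the other 8 lie between −0.52 and 0.47.

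The wider machinery of collagen maturation was listed as 26 further genes, of which 23 were tested. The knockout had higher levels of 8 and lower levels of 10, with 5 not called (78.3% called, beside the 61.4% of all tested genes), with a median log2 fold change of 0.02. Besides Plod3, P4ha3 and Pcolce2, the higher genes included Adamts14, a procollagen N-proteinase (log2 0.53, SE 0.08, edgeR adjusted p = 6.3e-09). Atp7a, the copper transporter that supplies lysyl oxidases in the secretory pathway, was at 50.2 ± 1.20 CPM in wild type and 58.0 ± 2.67 in the knockout (log2 0.21, SE 0.04). Ppib and Fkbp10, prolyl isomerase genes of the endoplasmic reticulum, had log2 fold changes of 0.12 (SE 0.03) and 0.11 (SE 0.03), and each shares exon sequence with a gene on the other strand (Snx22 and Nt5c3b). The lower genes included Adamts2, a relative of Adamts14, which removes the N-propeptide of fibrillar collagens, at 9.39 ± 0.33 CPM in wild type and 4.97 ± 0.21 in the knockout (log2 −0.92, SE 0.11, edgeR adjusted p = 1.9e-11). Fkbp7, a prolyl isomerase gene of the endoplasmic reticulum, fell by 0.83 on the log2 scale (SE 0.08), on chromosome 2, whose genes had a median of −0.24. Serpinh1, the collagen chaperone HSP47, fell 1.36-fold (SE 0.03 on the log2 scale), from 576 ± 18.2 to 423 ± 4.40 CPM. P3h3, a member of the prolyl 3-hydroxylase family, had a log2 fold change of −0.43 (SE 0.08). The 5 not called were P4hb, P3h1, P3h4, Tgm2 and Mia3. P3h2, a prolyl 3-hydroxylase gene under 1 CPM, was singled out after its values were seen, with 22, 31 and 17 counts in the wild-type libraries and 4, 2 and 2 in those of the knockout (log2 −3.09, SE 0.48, edgeR adjusted p = 7.1e-08).

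The genes of the proteins that these enzymes act on were mostly lower. Of 8 listed fibrillar collagen and elastin genes, 7 were tested, 6 were lower and Col11a1 was higher, beside 31.2% lower and 30.3% higher among all tested genes. The median log2 fold change of the 7 was −0.67. Col1a1 and Col1a2, the chains of collagen I, had log2 fold changes of −1.18 (SE 0.03) and −0.67 (SE 0.03). Col3a1 stood at −0.55 (SE 0.03), Col5a1 at −0.72 (SE 0.03), Col5a2 at −0.89 (SE 0.03) and Col5a3 at −0.51 (SE 0.08). Col5a1 lies on chromosome 2, whose tested genes had a median log2 fold change of −0.24. Col11a1, a minor fibrillar chain on chromosome 3, was at 2.35 ± 0.12 CPM in wild type and 3.90 ± 0.37 in the knockout (log2 0.73, SE 0.16). The 643 tested genes of chromosome 3 had a median of 0.30, with 450 higher and 60 lower. Eln, the elastin gene, had 0 counts in all 6 libraries.

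Relative to its main substrate genes, Lox was lower in every knockout library. The length-scaled ratio of Lox to Col1a1 was 0.308, 0.297 and 0.336 in the wild-type libraries and 0.192, 0.199 and 0.182 in the knockout libraries, and that of Lox to Col1a2 went from 0.186 ± 0.0074 to 0.0796 ± 0.0023. Neither ratio overlapped between genotypes (exact permutation p = 0.10 each, 0.10 adjusted over the 5 ratios computed). In the knockout the collagen I, III and V genes were lower, as were Lox, Plod1 and P4ha2 of the enzyme set, whereas Loxl3, Loxl4 and Pcolce were higher. Pcolce lies on chromosome 5, whose genes were higher in general, as does Plod3. Among the related genes, Plod3, P4ha3 and Pcolce2 were higher and Bmp1 and Serpinh1 lower. Whether these differences are linked was not tested.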

How the data were processed

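Stranded libraries of 6 RNA samples were prepared after rRNA depletion, per the labels' protocols. The values the authors deposited are raw counts per gene, with exon coordinates and merged exon length. STAR 2.6.1d, featureCounts 1.6.3 and mm10 or GRCm38 are named in the submitters' processing notes. No source used here states the strand setting or the treatment of reads with several alignments. Coordinates are those of the count table, and all 10 loci overlapped the gene of the same symbol in GENCODE M21 (GRCm38).

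Groups came from the sample titles. Counts were tested with edgeR 4.0.16 (R 4.3.3): TMM, filterByExpr (minimum count 10, total 15), robust quasi-likelihood F test, two-sided, Benjamini-Hochberg over 12947 genes. SE is the absolute log2 fold change over the square root of F. Shares and ratios were compared by exact permutation. Shares within a family sum to the whole, so their tests are not independent of each other. Alternatives used RLE, other filters, DESeq2 1.42.0, limma-voom (3.58.1), the replicate block, counts without Rn45s, counts without chromosomes 2, 3, 5 and 12, raw-count shares, and each library left out. The fit was tested on simulated counts of 12843 genes, with 50 genes changed at each fold. It called 78% of 1.25-fold changes, 92% of 1.5-fold and 100% of 2-fold and 4-fold changes, with 14 false calls. Far fewer genes were changed there than were called in the data, so changes this widespread were not covered. Every enzyme gene but Loxl2 had 484 or more counts in each library. Within-genotype pairs differed by a chi-square per gene of 2.05 to 6.50, so none was a duplicate. The counts of regions downstream of genes were not used, as they carry no gene names.

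Members and lists were chosen with earlier results of these data known. Named were all 10 members, Ube3d, P4ha3, Plod3, P4hb, Pcolce2 and Bmp1, up to 4 further called genes per direction with the largest change at 1 CPM or more, and the tested substrates. Python 3.11.15, pandas 2.3.3, NumPy 2.4.6, SciPy 1.17.1 and matplotlib 3.10.9 were used.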

Additional observations from a re-analysis of the deposited data

How the results depend on the processing

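Of the 9 tested enzyme genes, 7 kept their direction and their side of the threshold in all of up to 14 alternative fits; Pcolce has no value without chromosome 5. Loxl1 turned to 0.00457 on the log2 scale without chromosomes 2, 3, 5 and 12, and ran from −0.036 to 0.0064 with single libraries left out, positive without knockout replicate 1 and without wild-type replicate 1. P4ha1 passed the threshold with the 1 CPM filter (log2 0.0823), without Rn45s (0.0811) and without the 4 chromosomes (0.0968), and ran from 0.053 to 0.095 over single libraries left out, past the threshold only without wild-type replicate 3 (0.0946). Without the 4 chromosomes, 0 substrate genes were higher, since Col11a1 lies on chromosome 3.

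Shares of raw counts in place of length-scaled counts differed by −34.4 percentage points for Lox, 6.54 for Loxl1, 9.44 for Loxl3, 18.4 for Loxl4, −10.4 for P4ha2, 10.9 for P4ha3, −2.57 for Pcolce and 2.57 for Pcolce2, each in the direction of the length-scaled share. The share difference of Loxl2 ran from −0.0093 to 0.0012 points and that of P4ha1 from −1.10 to 0.212 over single libraries left out, so neither has a direction. Loxl2 is limited by depth.

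Replicate numbers are shared between genotypes, but deviations of same-numbered libraries correlated at −0.0391, −0.0318 and −0.0484, so they were not treated as pairs. With the replicate block, 3842 genes were higher and 3976 lower, and 3 enzyme genes were higher and 3 lower.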
